A study of Mus musculus with 24 samples.

Results

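TRAJ58, TRAJ57, TRAJ56, TRAJ53, TRAJ52, TRAJ50, TRAJ49 and TRAJ48 are the 8 joining (J) segments nearest the 5′ end of the mouse T cell receptor alpha array among those the tables list. They were taken by their column names from the tables of alpha-chain transcripts, which list 43 J segments, and all 8 were present in every table. The samples were Tcra libraries made from thymus cells (thymocytes) of C57BL/6 mice aged 4 to 12 weeks, 3 from Satb1 knockout (KO) mice and 3 from wild-type (WT) mice, out of 24 libraries of the series. The sample labels write the KO genotype as Satb1-/-, and the series design calls the animals Satb1cKO, a conditional knockout, for which no Cre driver or deleted cell type is named. Neither group is given any other allele or treatment, and the labels do not say whether libraries of a genotype came from separate mice. RNA was copied from a constant-region primer by 5′ RACE, amplified and sequenced, so that each read of a receptor transcript could show its variable (V) and J segment whatever the V segment was.

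An alpha chain gene is assembled in developing thymocytes by joining a V segment to a J segment, which in the genome lie upstream of the constant region. Joining starts with J segments at the 5′ end of the array and V segments near it, and a cell may then replace its join with one between a more distant V segment and a J segment farther 3′, so the 8 segments here belong to the start of that series. Satb1 is a chromatin-organising protein of thymocytes. The delta-chain V segments lie between the alpha V segments and the array, and a few of them can also be joined to alpha J segments.

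The 8 coding sequences are shown because they are the part of the transcript by which the columns are told apart. They lie on chromosome 14, plus strand, over 12.6 kb. That is 19.7% of the 63.8 kb spanned by all alpha J segments, listed or not, that GENCODE M21 (GRCm38) annotates. The deposited tables give segment names only, and the genome build the authors used is not given in the sources used here. Capitals mark the Phe-Gly-X-Gly motif of J segments, searched on the coding strand in any frame as codons for phenylalanine, glycine, any residue and glycine. It occurred in 42 of the 51 J transcripts annotated in the array as J genes (82.4%), and a single time in each of the 8 shown.
TRAJ58 (chr14:54157280-54157342): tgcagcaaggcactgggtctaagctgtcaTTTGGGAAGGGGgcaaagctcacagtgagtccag
TRAJ57 (chr14:54158507-54158569): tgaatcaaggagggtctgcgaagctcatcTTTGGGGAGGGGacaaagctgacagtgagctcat
TRAJ56 (chr14:54159263-54159325): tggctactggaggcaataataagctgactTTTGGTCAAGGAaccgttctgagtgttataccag
TRAJ53 (chr14:54162644-54162709): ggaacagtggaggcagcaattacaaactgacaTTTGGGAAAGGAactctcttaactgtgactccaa
TRAJ52 (chr14:54165316-54165381): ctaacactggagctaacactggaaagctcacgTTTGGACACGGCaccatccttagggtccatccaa
TRAJ50 (chr14:54167590-54167652): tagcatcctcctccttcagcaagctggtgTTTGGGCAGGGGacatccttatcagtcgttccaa
TRAJ49 (chr14:54168686-54168747): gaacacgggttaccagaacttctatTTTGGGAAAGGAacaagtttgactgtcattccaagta
TRAJ48 (chr14:54169808-54169868): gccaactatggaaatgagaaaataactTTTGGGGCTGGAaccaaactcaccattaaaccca

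The segments are 61 to 66 bases long. The stretch 5′ of the motif adds to the loop that meets antigen, and the motif starts at base 26 in TRAJ49, base 28 in TRAJ48, base 33 in TRAJ53 and TRAJ52, and base 30 in the others. TRAJ56 starts 1983 bases after TRAJ58. A gap of 3318 bases parts TRAJ56 and TRAJ53, and the other gaps between neighbours are 693 to 2606 bases. Traj55, Traj54 and Traj51, whose numbers are skipped, are annotated as pseudogenes.

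A table value gives, in percent of all assignments in a library, how often a V segment was joined to a J segment. No counts are given, so the depth is unknown. The smallest value above 0, taken as the resolution, was 0.0180%, 0.0593% and 0.117% in the KO libraries and 0.0158%, 0.0157% and 0.0241% in the WT libraries, so 2 KO libraries were the coarsest. Satb1 and marker genes of thymocytes are not measured in these tables, so neither the genotype nor the tissue label could be checked. A share also cannot tell fewer cells with a join from less RNA per cell, and since all shares of a library sum to 100, a gain in some segments is a loss in others by arithmetic. The p-values below measure the spread between these libraries, which may be technical.

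The 8 segments made up most of the alpha repertoire in the KO and a minority of it in WT, and every member was higher in every KO library than in any WT library, which held for 23.3% of the 43 segments. Together they held 55.8%, 68.3% and 67.2% in the KO libraries and 20.2%, 17.9% and 20.0% in the WT libraries, that is 63.8 ± 6.90% in KO and 19.4 ± 1.29% in WT (SD, n = 3 each). The groups did not overlap, and the exact two-sided permutation test gave p = 0.1, the smallest that 20 arrangements allow (adjusted p = 0.2 over 10 single values). All 8 segments passed the test for a higher share in KO with limma, at an adjusted p under 0.05 over the 43 segments. Among all 43 segments 18.6% passed in that direction and 46.5% passed in the other, and no segment outside these 8 was called higher. The median log2 fold change was 1.73 over the 8 segments and -1.54 over all 43.

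TRAJ58, the 5′-most listed segment, made up 11.5%, 13.6% and 10.7% of the KO libraries and 3.20%, 2.50% and 2.05% of the WT libraries. Its log2 fold change was the highest of the 8, at 2.22 (SE 0.29, limma adjusted p = 0.0074). TRAJ57 had 10.1%, 12.5% and 12.5% in the KO libraries and 3.19%, 2.72% and 2.77% in the WT libraries. All 3 KO values of each segment lay more than 3-fold above the highest WT value. TRAJ56 had 10.5%, 12.8% and 13.1% in the KO libraries and 3.58%, 3.41% and 3.87% in the WT libraries, a log2 fold change of 1.73 (SE 0.24, limma adjusted p = 0.0077).

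Farther into the array the KO means were 4.04% to 7.07% and the WT means 1.61% to 2.61%. TRAJ53 had 5.29%, 7.24% and 8.68% in the KO libraries and 1.93%, 1.53% and 2.19% in the WT libraries. TRAJ52 had 5.83%, 7.06% and 7.74% in the KO libraries and 2.17%, 2.00% and 2.79% in the WT libraries. TRAJ50 had 4.13%, 6.11% and 5.86% in the KO libraries and 1.93%, 1.24% and 1.66% in the WT libraries. For these 3 segments KO library 1 was the lowest of its genotype, and it still lay above all WT libraries. TRAJ49 had 4.64%, 5.58% and 3.75% in the KO libraries and 2.76%, 2.67% and 2.41% in the WT libraries, with the lowest log2 fold change of the 8, 0.81 (SE 0.27, limma adjusted p = 0.041). TRAJ48 had 3.86%, 3.44% and 4.81% in the KO libraries and 1.47%, 1.81% and 2.26% in the WT libraries (log2 fold change 1.13, SE 0.29, limma adjusted p = 0.033). In TRAJ49 and TRAJ48 the gap between the groups was narrowest: the lowest KO values, 3.75% and 3.44%, stood beside highest WT values of 2.76% and 2.26%.

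**Figure D1:**
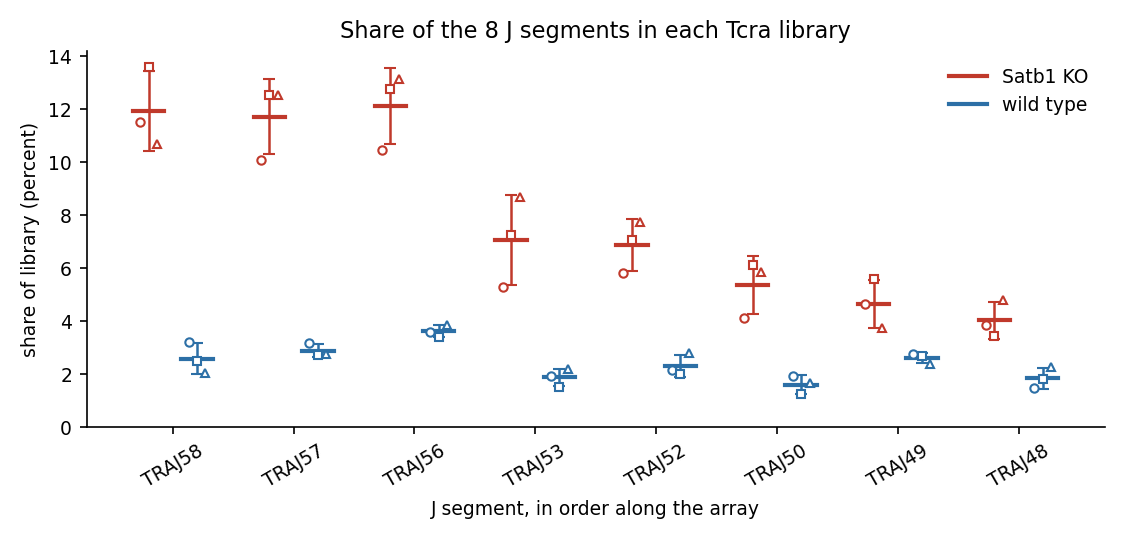
Share of each of the 8 J segments in percent of the library (vertical axis), in order along the array (horizontal axis); open symbols are libraries (circle, square and triangle for libraries 1, 2 and 3 of a genotype), thick bars the means and whiskers the SD of the 3 Satb1 KO and 3 wild-type libraries. KO means run between 4.04% at TRAJ48 and 12.1% at TRAJ56, all above the wild-type means of 1.61% to 3.62%, and no KO library overlaps a wild-type library.

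The calls depended on the WT libraries. Without WT library 1, 2 or 3, limma called 2, 0 and 5 of the 8 segments, of which 7 had an unadjusted p under 0.05 in each case; without a KO library it called 7, 7 and 8. When each V–J pair above 0 was counted a single time, whatever its share, limma called none of the 43 segments, though all 8 had an unadjusted p under 0.05 and the median log2 fold change of the 8 was 1.15. Centring each library on its mean log share put the median log2 fold change of all 43 segments at -0.08, in place of -1.54. All 8 segments were still called higher then, with a median of 3.19, and the calls over the array were 12 higher and 9 lower, in place of 8 higher and 20 lower. The log2 fold change of each of the 8 was positive in all 96 alternative fits.

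In order of their KO means the 8 segments took ranks 1 to 8 of the 43. TRAJ56, TRAJ58 and TRAJ57 stood above the rest, with 12.1 ± 1.44%, 11.9 ± 1.50% and 11.7 ± 1.41% (SD, n = 3), and their ranges overlapped each other but lay above that of TRAJ53 (7.07 ± 1.70%). Every other neighbour in that order had overlapping ranges, down to TRAJ48 and TRAJ40, the next segment outside. In WT the same 8 held no common place: TRAJ56 ranked 4, TRAJ57 ranked 11, TRAJ49 ranked 16, TRAJ58 ranked 17, and TRAJ50 was the lowest, at rank 33. Each overlapped its neighbour in the WT order.

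Within the 8, the KO distribution leaned toward the 5′ end. TRAJ58 made up 18.8 ± 2.56% of the assignments to the 8 segments in KO and 13.3 ± 2.85% in WT, and TRAJ57 made up 18.4 ± 0.301% in KO and 14.9 ± 0.982% in WT (SD, n = 3 each), without overlap between the groups. TRAJ49 and TRAJ48 lay on the other side. TRAJ49 held 7.35 ± 1.53% in KO and 13.5 ± 1.46% in WT, and TRAJ48 held 6.37 ± 1.16% in KO and 9.57 ± 2.07% in WT, each lower in every KO library. The 4 segments between them, TRAJ56 to TRAJ50, overlapped. TRAJ58 to TRAJ56 together held 57.5%, 56.9% and 54.1% of the 8 in the KO libraries and 49.3%, 48.3% and 43.4% in the WT libraries (exact permutation p = 0.1, the smallest possible; adjusted 0.2). That difference, 9.16 percentage points higher in KO, turned to -2.34 when pairs below the resolution of the coarsest library were set to 0, a step that kept 78.6%, 90.6% and 100% of the 8 segments' assignments in the KO libraries and 32.6%, 32.8% and 40.4% in the WT libraries.

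Segments outside the 8 were ranked by how closely they followed the sum of the 8 over the same 6 libraries. By the root mean square difference of centred log2 shares over the 6 libraries, the segments nearest to the sum of the 8 were TRAJ47 (0.503), TRAJ44 (0.627) and TRAJ39 (0.704). TRAJ47, the next listed segment 3′ of TRAJ48, had 2.13%, 2.91% and 3.75% in the KO libraries and 1.08%, 1.86% and 1.61% in the WT libraries. Its groups did not overlap, but it missed the threshold (log2 fold change 0.94, SE 0.36, limma adjusted p = 0.062). TRAJ44 averaged 1.68 ± 0.273% in KO and 1.14 ± 0.104% in WT (limma adjusted p = 0.12), also without overlap. TRAJ39 overlapped, with 3.19 ± 0.0653% in KO and 2.52 ± 0.747% in WT (SD, n = 3 each). TRAJ45 and TRAJ43, which lie between these segments, overlapped as well, with log2 fold changes of 0.27 and -0.48. Over the 35 segments outside the 8, the median log2 fold change was -2.13.

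The V segments joined to the 8 J segments were examined next, as a share of the joins to each J. In WT the V segments nearest the array were most frequent at the first J segments and fell away past TRAJ56, whereas in KO they were frequent along all 8. These V segments are TRAV17, TRAV19 and TRAV21/DV12, the alpha V segments closest to the array, and the delta V segments TRDV1, TRDV2-1, TRDV2-2, TRDV4 and TRDV5, of which TRDV4 and TRDV5 were listed at 0 in all 6 libraries. TRDV2-2 lies 196 kb and TRAV17 lies 350 kb upstream of TRAJ58, against 1321 kb for TRAV7D-5 and 1728 kb for TRAV1. The tables also list TRAV7N-5 and TRAV7-5, copies of TRAV7D-5 at other positions, so values and distance given for TRAV7D-5 rest on an uncertain assignment among them. Together the J-proximal and delta V segments supplied 37.5%, 34.9% and 36.3% of the joins to the 8 segments in the KO libraries and 18.2%, 19.7% and 20.6% in the WT libraries.

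At TRAJ58 the sum of these V segments was 48.9%, 37.1% and 45.1% in the KO libraries and 28.2%, 30.8% and 45.9% in the WT libraries, and at TRAJ57 it was 40.1%, 37.4% and 42.1% in the KO libraries and 30.3%, 33.5% and 38.3% in the WT libraries. The groups overlapped at both segments. At TRAJ56 they were apart, with 37.3 ± 5.89% in KO and 22.5 ± 2.66% in WT. The difference in means was 14.8 percentage points at TRAJ56. Beyond the 3318-base gap it was 23.9 at TRAJ53, 14.4 at TRAJ52, 25.7 at TRAJ50, 24.9 at TRAJ49 and 15.5 at TRAJ48. TRAJ53 had 29.0%, 37.7% and 25.7% in the KO libraries and 9.84%, 4.12% and 6.59% in the WT libraries. TRAJ50 had 38.9%, 29.1% and 38.0% in the KO libraries and 9.84%, 8.86% and 10.1% in the WT libraries. TRAJ52 and TRAJ49 also did not overlap, with 28.0 ± 5.24% in KO and 13.7 ± 7.25% in WT at TRAJ52, and 35.7 ± 4.39% in KO and 10.8 ± 4.27% in WT at TRAJ49. TRAJ48 overlapped, because KO library 3 had 14.6% there and WT library 2 had 17.4%.

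Taken over blocks of the array, the sum was 40.3 ± 4.52% in KO and 29.5 ± 4.32% in WT at TRAJ58 to TRAJ56, and 31.1 ± 3.21% in KO and 10.8 ± 0.989% in WT at TRAJ53 to TRAJ48 (SD, n = 3 each). Outside the 8 it was 28.9 ± 2.15% in KO and 6.92 ± 0.930% in WT at TRAJ47 to TRAJ38, and 22.1 ± 7.52% in KO and 1.92 ± 0.517% in WT at TRAJ37 and lower numbers. The split of the 8 into these blocks was chosen after the values were seen and was not tested. The share within the 8 minus the share in the rest of the array was 18.0, 5.58 and 8.80 percentage points in the KO libraries and 15.8, 16.9 and 16.8 in the WT libraries, and this contrast did not differ beyond the spread (exact permutation p = 0.4, adjusted 0.44).

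**Figure D2:**
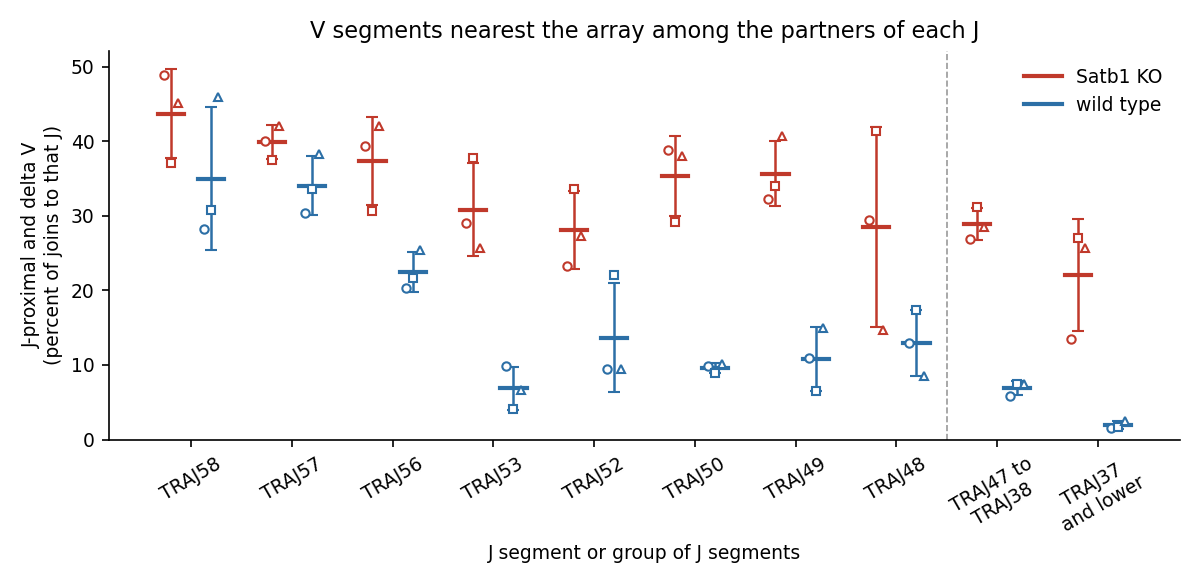
J-proximal and delta V segments as a percentage of the joins to each J segment (vertical axis) for the 8 J segments and, right of the dashed line, 2 groups of J segments farther 3′ (horizontal axis); open symbols are libraries, thick bars means and whiskers SD for 3 Satb1 KO and 3 wild-type libraries. KO means stay between 28.0% and 43.7% over the 8, while wild-type means are 35.0% and 34.1% at TRAJ58 and TRAJ57 and 6.85% to 13.7% at TRAJ53 to TRAJ48.

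Within that sum, the delta V segments did not overlap between the genotypes and the J-proximal alpha V segments did. Delta V segments supplied 16.6%, 22.1% and 13.3% of the joins to the 8 segments in the KO libraries and 5.64%, 5.10% and 7.58% in the WT libraries (exact permutation p = 0.1, the smallest possible; adjusted 0.2). They were higher in every KO library at each J segment other than TRAJ58. At TRAJ50 they held 16.6%, 22.3% and 26.0% in the KO libraries and 4.92%, 0% and 2.90% in the WT libraries. The difference over the 8 lay in TRDV1 and TRDV2-2. TRDV2-1 overlapped, with 1.42%, 0.521% and 0.175% of the joins to the 8 in the KO libraries and 0.705%, 0.176% and 1.32% in the WT libraries. TRAV17, TRAV19 and TRAV21/DV12 together held 20.9%, 12.9% and 23.0% in the KO libraries and 12.5%, 14.6% and 13.0% in the WT libraries, which overlapped (exact permutation p = 0.3, adjusted 0.38).

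As shares of the joins to the 8, these 3 alpha V segments did not go the same way. TRAV21/DV12, a segment usable in alpha and delta chains, supplied 13.1%, 7.99% and 16.6% of the joins to the 8 segments in the KO libraries and 5.17%, 5.98% and 5.78% in the WT libraries (log2 fold change 1.09, SE 0.55, limma adjusted p = 0.32). TRAV17 supplied 2.33%, 3.48% and 3.32% in the KO libraries and 5.40%, 6.42% and 4.33% in the WT libraries (log2 fold change -0.82, SE 0.53, limma adjusted p = 0.40). Neither passed the test, although the groups did not overlap for either segment, with TRAV21/DV12 higher and TRAV17 lower in KO on this scale. TRAV19 overlapped, with 5.46%, 1.39% and 3.14% in the KO libraries and 1.96%, 2.20% and 2.89% in the WT libraries (log2 fold change 0.31, SE 0.65, limma adjusted p = 0.82). Among the joins to the rest of the array, TRAV17 was higher in every KO library. It held 2.90%, 4.67% and 2.86% there in the KO libraries and 0.775%, 0.881% and 1.11% in the WT libraries. At TRAJ57 alone, TRAV17 made up 2.50%, 2.84% and 4.67% of the joins in the KO libraries and 9.45%, 11.0% and 9.57% in the WT libraries, where it was the partner ranked 2 by mean share. In percent of the library, TRAV17 with TRAJ57 averaged 0.398 ± 0.171% in KO and 0.288 ± 0.0204% in WT, which overlapped.

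The V partner with the highest mean share differed between the genotypes at TRAJ53, TRAJ52, TRAJ50 and TRAJ49, a ranking that was not tested. By mean share TRAV21/DV12 was the leading V segment of TRAJ58, TRAJ57 and TRAJ56 in both genotypes, and TRAV4-4-DV10 led TRAJ48 in both. At TRAJ53, TRAV21/DV12 led in KO with 10.9%, 11.5% and 14.9%, against 0%, 0% and 3.30% in the WT libraries, where TRAV4-4-DV10 led. At TRAJ49, TRAV21/DV12 led in KO with 8.95%, 18.1% and 15.6%, against 3.45%, 0.588% and 0% in the WT libraries, where TRAV7D-5 led. TRAJ52 was led by TRAV4-4-DV10 in KO and by TRAV6-7-DV9 in WT, and TRAJ50 was led by TRAV7D-5 in KO and by TRAV4-4-DV10 in WT. Like TRAV7D-5, TRAV4-4-DV10 and TRAV6-7-DV9 have copies at other positions, so the places of all of these rest on an uncertain assignment. TRAV6-7-DV9 held 6.81%, 1.68% and 1.52% of the joins to TRAJ52 in the KO libraries and 8.03%, 11.8% and 6.90% in the WT libraries, lower in every KO library. In percent of the library this pair averaged 0.211 ± 0.161% in KO and 0.201 ± 0.0317% in WT, which overlapped.

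Of the V segments over all joins to the 8, TRAV7D-5 held 7.86%, 13.1% and 9.08% in the KO libraries and 6.97%, 7.39% and 4.57% in the WT libraries (log2 fold change 0.66, SE 0.55, limma adjusted p = 0.52). TRDV2-2 held 9.18%, 11.6% and 6.28% in the KO libraries and 2.04%, 2.11% and 1.81% in the WT libraries, and TRDV1 held 5.98%, 9.90% and 6.81% in the KO libraries and 2.90%, 2.81% and 4.45% in the WT libraries. Their limma adjusted p-values were 0.065 and 0.29. TRAV4-4-DV10 overlapped, with 6.66 ± 2.83% in KO and 4.73 ± 1.38% in WT (SD, n = 3 each). Its copy TRAV4D-4 was lower in every KO library, with 0.323%, 0.0869% and 0% in the KO libraries and 1.96%, 2.55% and 1.08% in the WT libraries (limma adjusted p = 0.0505). The assignment among the copies is uncertain. No libraries of TRAV7D-5, TRDV2-2 and TRDV1 overlapped between the genotypes, but none of these segments passed the test. Of the 78 V segments tested, 6.41% were higher and 19.2% lower in every KO library. Over the 78 V segments tested, limma called 0 higher (0.0%) and 2 lower (2.56%), while 1 had an unadjusted p under 0.05 in the higher direction and 14 in the lower.

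The 2 called segments were rare. TRAV1, the V segment farthest from the array, was listed at 0 in all 3 KO libraries and at 0.392%, 0.264% and 0.120% of the joins to the 8 in the WT libraries, and TRAV7N-6 was listed at 0 in all 3 KO libraries and at 0.157%, 0.704% and 0.602% in the WT libraries (limma adjusted p = 0.030 for each). On that scale the smallest value above 0 was 0.0323%, 0.0869% and 0.175% in the KO libraries and 0.0783%, 0.0880% and 0.120% in the WT libraries. TRAV7N-6 has near-identical copies, so its assignment is uncertain. With copies summed the 2 calls were TRAV1, lower, and TRDV2-2, higher (limma adjusted p = 0.011 and 0.027). Without WT library 1, 2 or 3 the calls were 1, 0 and 0, and without a KO library 2, 5 and 7.

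The V composition of the 8 segments was less even in KO. The Shannon entropy over V segments was 4.94, 4.71 and 4.78 bits in the KO libraries and 5.59, 5.53 and 5.60 bits in the WT libraries (exact permutation p = 0.1, the smallest possible; adjusted 0.2). The number of V segments above 0 was 85, 67 and 65 in the KO libraries and 90, 86 and 84 in the WT libraries (exact permutation p = 0.2, adjusted 0.29). The 2 libraries of coarsest resolution, KO libraries 2 and 3, had the fewest V segments above 0. With pairs below the coarsest resolution set to 0, the entropy difference turned round, to 0.83 bits higher in KO. When V segments were divided by their distance from the array, the distal and proximal classes overlapped between the genotypes and the middle class was lower in every KO library. The middle class supplied 8.41%, 9.12% and 8.20% in the KO libraries and 11.2%, 12.6% and 11.2% in the WT libraries, a difference that was not tested. The copies TRAV7D-5, TRAV7N-5 and TRAV7-5 fall into the distal, middle and proximal class, so the class sums rest on the same uncertain assignment. The distal class supplied 16.7 ± 2.82% in KO and 22.0 ± 3.87% in WT (exact permutation p = 0.2, adjusted 0.29), and the proximal class supplied 57.4 ± 7.73% in KO and 60.2 ± 3.01% in WT (exact permutation p = 0.9, adjusted 0.9).

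Single V–J pairs were compared next. Of the 936 pairs that hold one of the 8 J segments, 616 were above 0 in any library, 88 in all 6, 77 in KO libraries alone and 131 in WT libraries alone. The 0.1% filter on the mean left 112 of them for the test, of which 75 had a WT mean below 0.1% and so passed through their KO values. Limma called 44 of the 112 higher in KO and 0 lower, against 22.8% higher and 12.9% lower over all 202 pairs tested. At an unadjusted p under 0.05 there were 66 higher and 0 lower. Without the filter, limma called 40 of the 616 pairs higher and 1 lower, and at an unadjusted p under 0.05 there were 100 higher and 20 lower, so the absence of lower pairs held for the filtered pairs. Without WT library 1, 2 or 3 the called pairs among the 8 segments numbered 9, 7 and 13, and without a KO library 39, 38 and 40. After centring they numbered 9, and over all pairs 9 were then called higher and 27 lower, in place of 46 higher and 26 lower. A 10-fold smaller pseudocount left 4.

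The called pairs involved 12 V segments. TRDV1, TRDV2-2 and TRAV21/DV12 accounted for 21 of the 44, out of 24 possible joins of these 3 segments to the 8 J segments. Of these 24, 22 were higher in every KO library, as were 37.6% of all 202 pairs tested and 71 of the 112 that hold one of the 8 J segments. Because 75 of the 112 passed the filter through their KO values, nothing is read from these counts. The joins of the 24 that were not called were TRDV2-2 with TRAJ52, TRDV1 with TRAJ57 and TRAV21/DV12 with TRAJ48, with limma adjusted p-values of 0.21, 0.074 and 0.17. TRDV2-2 with TRAJ52 was held up by KO library 3, which had 0%, beside 0.235% and 1.07% in KO libraries 1 and 2 and 0.0158%, 0.0315% and 0.0241% in the WT libraries. TRAV7D-5 gave 5 of the called pairs, and TRAV19, TRAV4-4-DV10, TRAV7-5 and TRAV16N gave 3 each. Of these V segments all but TRAV19 have copies at other positions, so their counts rest on an uncertain assignment. By J segment, from 5′ to 3′, the called pairs were 7 of 19 tested for TRAJ58, 8 of 18 for TRAJ57, 6 of 20 for TRAJ56, 7 of 13 for TRAJ53, 6 of 14 for TRAJ52, 4 of 10 each for TRAJ50 and TRAJ49, and 2 of 8 for TRAJ48.

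The most abundant KO pairs joined TRAV21/DV12 to the first 3 J segments. TRAV21/DV12 with TRAJ58 had 1.84%, 1.30% and 2.34% in the KO libraries and 0.301%, 0.220% and 0.217% in the WT libraries (log2 fold change 2.79, SE 0.67, limma adjusted p = 0.020). TRAV21/DV12 with TRAJ56 had 1.64%, 0.593% and 3.05% in the KO libraries and 0.174%, 0.236% and 0.457% in the WT libraries, so that the lowest KO and the highest WT value lay close together. TRDV2-2 with TRAJ57 had 1.03%, 2.14% and 1.17% in the KO libraries and 0.0792%, 0.0787% and 0.0481% in the WT libraries (log2 fold change 4.06, SE 0.68, limma adjusted p = 0.0064). The WT mean of this pair, 0.0687%, lay below the 0.1% filter. The pair passed through its KO values, and nothing is read from that p-value. TRDV2-2 with TRAJ58 had 1.88%, 1.72% and 0.938% in the KO libraries and 0.111%, 0.157% and 0.144% in the WT libraries, and the 2 groups were far apart.

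The pairs with the largest fitted fold changes were those that WT libraries barely held. TRDV2-2 with TRAJ50 had 0.397%, 0.890% and 0.821% in the KO libraries and 0%, 0% and 0.0241% in the WT libraries. TRAV21/DV12 with TRAJ53 had 0.577%, 0.830% and 1.29% in the KO libraries and 0%, 0% and 0.0722% in the WT libraries. TRDV2-2 with TRAJ53 had 0.217%, 0.593% and 0.352% in the KO libraries and was listed at 0 in all 3 WT libraries. Likewise TRDV2-2 with TRAJ48 had 0.325%, 0.237% and 0.234% in the KO libraries and was listed at 0 in all 3 WT libraries. Limma adjusted p-values were 0.0051 for the 3 TRDV2-2 pairs and 0.0064 for the TRAV21/DV12 pair. No fold is given because the fitted values depend on the pseudocount. Each of these pairs had a WT mean below 0.1% and so passed the filter through its KO values, and nothing is read from these p-values. TRAV21/DV12 with TRAJ49 had 0.415%, 1.01% and 0.586% in the KO libraries and 0.0951%, 0.0157% and 0% in the WT libraries. TRDV1 with TRAJ53 and with TRAJ50 averaged 0.354 ± 0.207% and 0.451 ± 0.237% in KO and 0.0106 ± 0.0183% and 0.0397 ± 0.0494% in WT (SD, n = 3 each). All of these lie at TRAJ53 or 3′ of it, other than the TRDV2-2 join to TRAJ57.

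Of the 112 tested pairs that hold one of the 8 J segments, 1 was lower in every KO library, as were 16.3% of all pairs tested. Because 75 of the 112 passed the filter through their KO values, nothing is read from this count. TRAV6-7-DV9 with TRAJ49 had 0.144%, 0.119% and 0.117% in the KO libraries and 0.190%, 0.157% and 0.289% in the WT libraries (log2 fold change -0.64, SE 0.66, limma adjusted p = 0.44), and it did not pass the test.

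**Figure D3:**
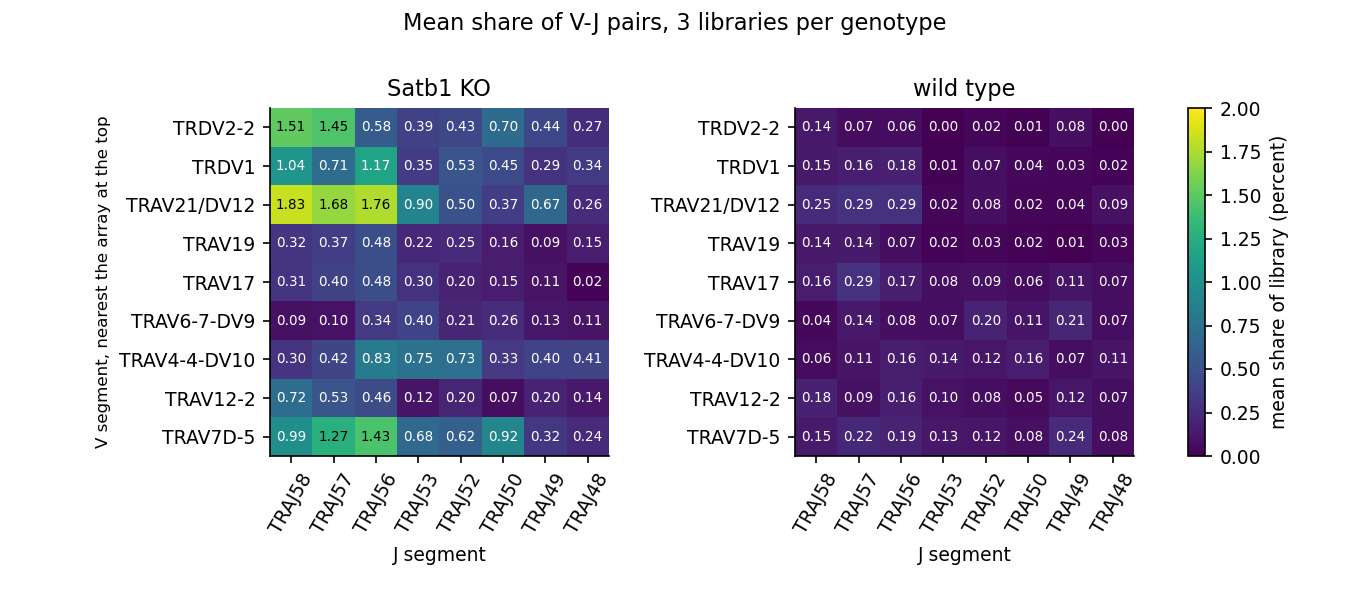
Mean share of V–J pairs in percent of the library (colour, number in each cell; 3 libraries per genotype) for the 8 J segments (columns, 5′ to 3′) and 9 V segments (rows, nearest the array at the top), Satb1 KO on the left and wild type on the right. The KO cells for TRDV2-2, TRDV1 and TRAV21/DV12 reach 1.83%, and in wild type the same 3 rows stay at or below 0.293%; from TRAJ53 on, the wild-type TRDV1 and TRAV21/DV12 rows are lower than at TRAJ58 to TRAJ56, while the TRDV2-2 row has 0.0820% at TRAJ49, above its 0.0687% at TRAJ57.

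For each V segment, the share of its own joins that used the 8 J segments gives a view that does not depend on how common the V segment is. Outside the J-proximal and delta list its mean was above 50% for 25 of 33 V segments in KO, against 0 of the 33 in WT. Over all V segments together the 8 held 63.8 ± 6.90% in KO and 19.4 ± 1.29% in WT (SD, n = 3 each). These counts and those below are therefore not read as separate from that shift of the whole library. Of 44 V segments with a mean share of at least 0.5% of the library, 38 were above 0 in all 6 libraries, and all 38 had a positive log2 fold change in the balance between the 8 and the rest of the array. Limma called 29 of the 38 higher in KO and none lower. Over all 44 it called 34 (77.3%), but for the 6 V segments absent from a KO library the pseudocount sets that library's balance to even, and 5 of these were among the calls. By position, 5 of 8 distal, 3 of 4 middle, 21 of 24 proximal and 0 of 2 delta V segments were called among the 38.

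The V segments outside the J-proximal and delta list, 33 of the 38, placed 5.97% to 36.2% of their joins on the 8 J segments in WT (median of segment means 18.3%) and 18.9% to 82.3% in KO (median 59.6%). TRAV7D-5, whose assignment among copies is uncertain, placed 54.2%, 64.8% and 72.2% of its joins there in the KO libraries and 16.8%, 16.3% and 15.8% in the WT libraries. TRAV12D-1 placed 65.2%, 80.0% and 75.0% there in the KO libraries and 16.8%, 19.7% and 18.6% in the WT libraries (limma adjusted p = 0.0025). Neither overlapped between the genotypes. TRAV12-2, with the largest fitted change in balance, placed 58.4%, 95.7% and 92.9% there in the KO libraries and 18.8%, 15.9% and 18.2% in the WT libraries (limma adjusted p = 0.0037). The others among the 8 largest called changes were TRAV6-5, TRAV3-4, TRAV3D-3, TRAV14N-3, TRAV12N-2 and TRAV12-1, several of them with near-identical copies and with KO libraries at the limits of the scale, such as 11.8%, 100% and 71.4% for TRAV14N-3 beside 13.0%, 7.92% and 11.1% in the WT libraries. TRAV12-2 and TRAV12D-1 have copies at other positions too, so their values rest on an uncertain assignment. Of the copies of TRAV12-2, TRAV12N-2 was called, but TRAV12D-2 was not (limma adjusted p = 0.46). TRAV12D-2 overlapped, with 40.6%, 0% and 16.7% in the KO libraries and 13.5%, 22.2% and 17.0% in the WT libraries.

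The J-proximal and delta V segments were already placed on the 8 J segments in WT. TRDV2-2 placed 86.9%, 83.8% and 73.5% of its joins there in the KO libraries and 76.5%, 70.6% and 83.3% in the WT libraries, and TRDV1 placed 74.3%, 63.3% and 72.2% there in the KO libraries and 66.1%, 60.4% and 67.3% in the WT libraries. TRAV17 placed 50.3%, 61.5% and 70.4% there in the KO libraries and 63.9%, 61.3% and 49.3% in the WT libraries. The ranges of these 3 segments overlapped. TRAV21/DV12 averaged 69.6 ± 5.61% in KO and 57.1 ± 7.60% in WT, which also overlapped (SD, n = 3 each; limma adjusted p = 0.17). TRAV19 was the only call among the 5 tested, with 74.8%, 88.9% and 75.0% in the KO libraries and 62.5%, 58.1% and 60.0% in the WT libraries (limma adjusted p = 0.039). The 5 WT means, 57.1% to 76.8%, all lay above the WT means of the other 33 V segments, whereas the 5 KO means, 60.8% to 81.4%, fell inside the KO range of those 33. After the balances of each library were centred on their mean, limma called none of the 44, and 11 had an unadjusted p under 0.05. A difference between the 2 lists was not tested.

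Among the joins that TRDV2-2, TRDV1 and TRAV19 made to the 8, fewer lay at TRAJ58 to TRAJ56 in every KO library, while TRAV21/DV12, TRAV17 and TRDV2-1 overlapped between the genotypes. TRDV2-2 made 66.5%, 59.7% and 58.3% of these joins at TRAJ58 to TRAJ56 in the KO libraries and 73.1%, 70.8% and 66.7% in the WT libraries, and TRDV1 made 62.7%, 58.8% and 59.0% there in the KO libraries and 64.9%, 84.4% and 75.7% in the WT libraries. The nearest TRDV2-2 libraries, 66.5% in KO and 66.7% in WT, almost touched. TRAV19 made 59.2%, 43.8% and 61.1% there in the KO libraries and 76.0%, 64.0% and 87.5% in the WT libraries. Of the segments that overlapped, TRAV21/DV12 had 64.2 ± 11.3% in KO and 76.0 ± 6.42% in WT, TRAV17 had 60.4 ± 7.46% in KO and 59.3 ± 2.02% in WT, and TRDV2-1 had 65.7 ± 33.4% in KO and 84.2 ± 18.6% in WT (SD, n = 3 each). Away from the J-proximal and delta list, TRAV7D-5 had 56.9 ± 9.33% in KO and 44.9 ± 9.34% in WT. TRAV4-4-DV10 had 37.4 ± 1.12% in KO and 37.3 ± 12.8% in WT, and TRAV6-7-DV9 had 30.2 ± 12.6% in KO and 28.5 ± 4.24% in WT. All of these overlapped as well. The share was not taken for the remaining V segments, so how common such a separation is among V segments is not known. These values were not tested. Those of TRDV2-2, TRDV1 and TRAV19 ran against the sum over all V segments, for which TRAJ58 to TRAJ56 held more of the 8 in KO.

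**Figure D4:**
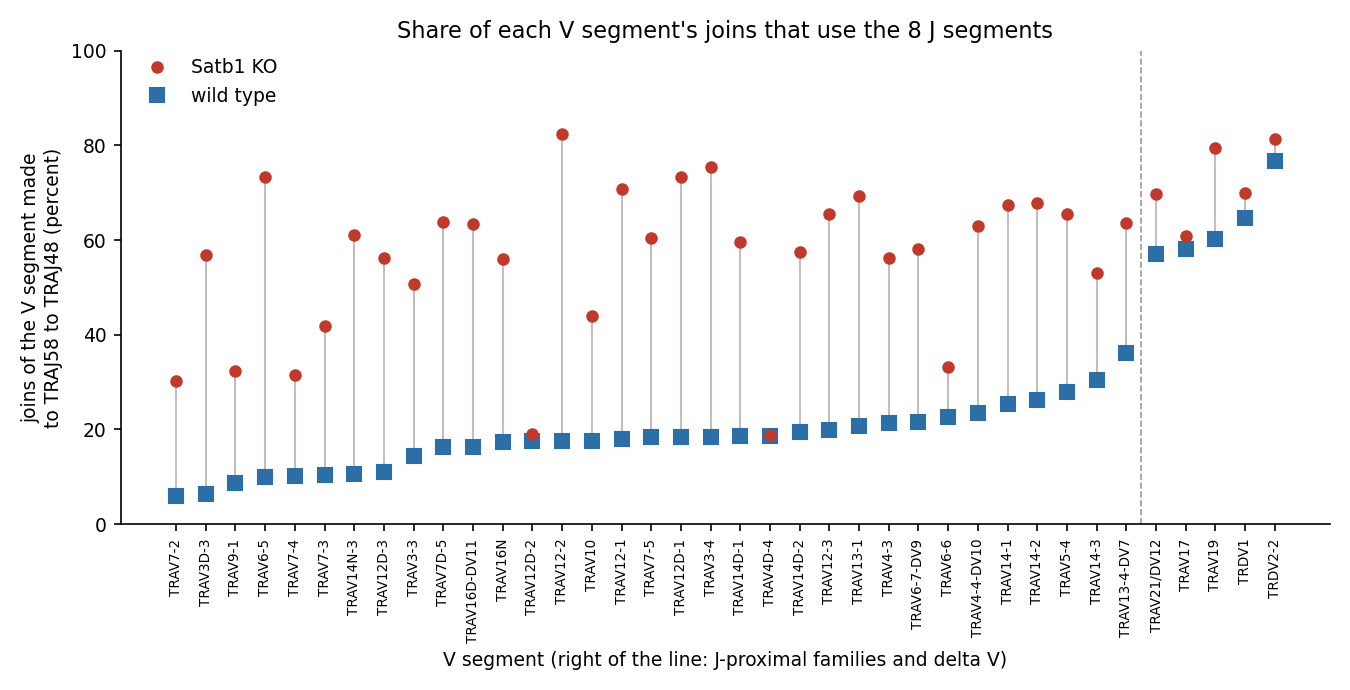
Mean percentage of each V segment's own joins made to the 8 J segments (vertical axis, 3 Satb1 KO and 3 wild-type libraries) for the 38 V segments that passed the 0.5% filter and were above 0 in all 6 libraries (horizontal axis, ordered by the wild-type mean in each list), with grey lines joining the 2 means of a V segment. Left of the dashed line the 33 other V segments have KO means of 18.9% to 82.3% and wild-type means of 5.97% to 36.2%; right of it the 5 J-proximal and delta V segments have KO means of 60.8% to 81.4% and wild-type means of 57.1% to 76.8%.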

How the data were processed

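Each deposited table holds values in percent, which the authors made by assigning the reads of a library to V and J segments: 117 V rows by 43 J columns whose cells sum to 100. Reads were trimmed with fastp, whose version is not stated, per the submitters' processing notes. The sources used here give no aligner or segment caller, and do not say whether reads or clonotypes were counted. The labels name no molecular identifiers. PCR copies can therefore weigh on every share. Values were whole multiples of the library's smallest value within 0.01, and counts were not reconstructed.

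Columns were summed per J segment, and rows per V segment over the 8 J columns. J segments and pairs with a mean of at least 0.1%, V segments with at least 0.1% of the 8, and V balances for V segments with at least 0.5% were tested with limma 3.58.1 (R 4.3.3) on log2(percent + 0.0157), or + 0.0323 for shares of the 8, with Benjamini-Hochberg adjustment over all features and calls at 0.05. Fold changes are on that scale, which understates those of low values above 0. A 0 in KO library 2 or 3 is set below that library's own resolution, which can overstate a fall in KO. TRAJ38, at 0% in KO library 3, averaged 0.550% in KO and 1.04% in WT, with a fitted log2 fold change of -2.22. The design had foreseen a count test had the files held counts. The 10 single values had exact two-sided permutation tests (SciPy 1.17.1). Equal replicate numbers were taken to pair libraries only if residuals correlated above 0.1 for all 3 numbers, and they did not. The limma code was tested on simulated data.

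Positions and sequences came from GENCODE M21, which matched 114 of 117 V and all 43 J segments. The V classes by position hold 37 distal, 36 middle and 36 proximal segments. Named are all 8 J segments and their neighbours; the 3 J segments most like their sum; the 3 leading V partners per J; V segments with at least 5% of the 8 or called; and the 8 highest called pairs and balances. Members and lists were chosen with earlier results of these data known. Alternatives were other pseudocounts, no filter, centring, a replicate block, each pair counted a single time, low pairs set to 0, and each library left out; summed V copies, centred balances and V segments present in all libraries were added after the data were seen. The other 18 libraries hold no alpha J column and were not used.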

Additional observations from a re-analysis of the deposited data

How the results depend on the processing

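The 28 J segments called became 16 with a smaller pseudocount and 0 with each pair counted a single time (16 of 43 at an unadjusted p under 0.05), and ranged from 0 to 28 with a library left out. The 8 called in the window became 0 with each pair counted a single time and ranged from 0 to 8. The 72 pairs called (46 higher, 26 lower) became 5 with a smaller pseudocount, 140 with no filter (41 higher, 99 lower) and 36 after centring (9 higher, 27 lower), and ranged from 7 to 79 with a library left out; the 44 in the window became 4 with a smaller pseudocount and 9 after centring, and ranged from 7 to 40. The 2 V segments called within the window became 7 with a larger pseudocount, 4 with no filter and 0 after centring (limma, 13 of 78 at an unadjusted p under 0.05), and ranged from 0 to 7. The 34 balances called became 0 after centring and were 24 to 50 otherwise. The cause of these changes was not tested, other than that centring removes a shift common to all features.

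With the replicate block the calls were 21 J segments (6 of the 8), 84 pairs (48 in the window), 4 V segments within the window and 33 balances. Residuals of libraries with equal numbers correlated over J segments at 0.226, -0.201 and 0.274, and over pairs at 0.0634, 0.135 and 0.170, which missed the bound set for pairing. Libraries with unequal numbers correlated at -0.530 to 0.532 over J segments. Over pairs they correlated at -0.157 to 0.0356, below every value for equal numbers. The labels do not say what equal numbers mean.

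The proximal V class (KO minus WT, percentage points) ranged from -6.15 to 1.42 with a library left out, the highest without KO replicate 2, and turned to 7.43 with each pair counted a single time. With pairs under the coarsest resolution set to 0, the TRAJ58 to TRAJ56 share turned to -2.34 and the J-proximal V families to -8.07 percentage points, the entropy to 0.83 bits and the V segments above 0 to 29.7, each KO minus WT. That step removes more of the finer WT libraries, so composition below 0.117% could not be compared in all libraries.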
